A study of Mus musculus with 16 samples.

Results

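The genes described here are 8 genes that mark the scavenging and alternatively activated states of macrophages, of 55487 genes in a table of RNA-sequencing counts: Msr1, Marco, Cd36, Cd163, Mrc1, Clec10a, Retnla and Chil3. They were chosen by name and found by matching the Ensembl identifiers of the table to symbols, which gave 1 row for each of the 8. The first 6 encode receptors on the cell surface, while Retnla and Chil3 encode secreted proteins, so "receptor" holds for 6 of the 8. Of the 8, 6 passed the filter on low counts (a CPM, the counts of a gene scaled to sequencing depth, above 1 in at least 2 samples), and Retnla and Chil3 did not.

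The cells were bone marrow-derived macrophages (BMDMs), obtained by culturing marrow cells, here from WT Balb/c mice of 8 weeks. CM is medium conditioned by 4T1 cells, a mouse mammary tumor cell line, and carries the soluble factors that these cells release. Ruxolitinib (Rux, 0.5 µM) is an inhibitor of JAK1 and JAK2. IKK-16 (0.8 µM) blocks the IKK kinases that act upstream of NF-κB. The groups were DMEM (medium without CM, 2 samples), DMEM + Rux (3), CM (3), CM + Rux with a label of 2 h (2), CM + Rux with a label of 4 h (3, called CM + Rux below) and CM + Rux + IKK-16 (3). All cells were serum starved before treatment. The study's methods give 2 h of starvation, ruxolitinib added in this step for cells given CM and ruxolitinib, and 4 h of CM. What the label of 2 h refers to, and the dose and time of ruxolitinib in DMEM, are not stated in the sources used here. No group received IKK-16 without ruxolitinib, no group received IL-4 or IL-13, and the mice behind each sample are not named, so p-values measure the spread between these samples, which may be technical.

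Scavenger receptors bind modified lipoproteins, polyanions, microbial surfaces and debris of dead cells and carry them into the cell, and macrophages are the cells best known for them. Alternative activation is the state that IL-4 and IL-13 bring about in macrophages through the receptor chain IL-4Rα and the transcription factor STAT6, with a high level of the mannose receptor (Mrc1), of the lectin Clec10a and of the secreted proteins Retnla and Chil3 as its usual signs in mice. Macrophages in tumors often carry some of these marks, in particular Mrc1, Cd163 and Msr1.

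Total counts lay between 18449388 and 46215853 per sample, so that 3 counts, the upper limit behind a count of 0, correspond to 0.0669 to 0.175 CPM (this limit covers counting error only). CPM values carry the relative log expression (RLE) scaling of edgeR. The test is its quasi-likelihood test on 1 model of all 16 samples. Calls required an adjusted p under 0.05 together with a log2 fold change beyond 0.5. All 8 macrophage markers passed the filter and none was at 0 in any group, with a summed level of 38719 to 55380 CPM over the samples. In CM, Cish, a target of STAT5, was called higher (log2 fold change 9.90) and the NF-κB target Nfkbia too (2.61), Cish was called lower with ruxolitinib (-1.05), and Nfkbia was called lower with IKK-16 (-0.84), which checks the labels of these groups. Relative to total counts alone, RLE scaling shifted the median gene on the log2 scale by 0.31 when CM was set against DMEM, and by -0.11 when both inhibitors were set against CM. In bulk RNA, fewer cells of a type and less RNA per cell cannot be told apart.

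The members differed widely in level. Per kilobase of exon, which allows levels of different genes to be set side by side, Cd36 had the highest level in DMEM with 129 CPM per kb, above 98% of the genes tested. Msr1 had 47.4 and Mrc1 15.0 CPM per kb in DMEM. Clec10a had 2.81, Cd163 0.296 and Marco 0.102 CPM per kb, and the last of these exceeded 2.1% of the genes tested. The order changed in CM, where Msr1 stood at 257 CPM per kb, above 98.7% of the genes tested, and Cd36 at 130. The level of Mrc1 in CM was 22.5 CPM per kb, and Clec10a, Marco and Cd163 had 1.34, 0.113 and 0.0916. Thus the BMDMs held much Cd36 and Msr1 RNA, an intermediate level of Mrc1 and little or no RNA of the others.

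Sequence upstream of the start site is shown for 3 members, since Retnla and Chil3 are the textbook targets of STAT6 that had almost no counts here, and Mrc1 had the larger fall of the 2 members called with ruxolitinib in CM. The sequences come from RefSeq (GRCm38.p6), which matched 6 of the 8 members, all but Msr1 and Clec10a. Each of the 3 shown ends before the first base that the counts table assigns to the gene. The window of Cd36, not shown, lies inside the gene of the counts table, upstream of a start site within it. The windows of 250 bases upstream of 32851 start sites were searched on both strands for the STAT palindrome TTCNNNGAA, the STAT6 palindrome with a spacer of 4 bases, the NF-κB consensus, the AP-1 motif TGANTCA and the PU.1 motif GAGGAAGT. Capitals mark a match.
Retnla, chr16:48842359-48842550 (+): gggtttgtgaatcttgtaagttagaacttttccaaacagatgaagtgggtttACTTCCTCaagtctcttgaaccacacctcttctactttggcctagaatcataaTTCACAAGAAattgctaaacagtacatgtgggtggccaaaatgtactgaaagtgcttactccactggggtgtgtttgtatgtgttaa
Chil3, chr3:106167565-106167814 (-): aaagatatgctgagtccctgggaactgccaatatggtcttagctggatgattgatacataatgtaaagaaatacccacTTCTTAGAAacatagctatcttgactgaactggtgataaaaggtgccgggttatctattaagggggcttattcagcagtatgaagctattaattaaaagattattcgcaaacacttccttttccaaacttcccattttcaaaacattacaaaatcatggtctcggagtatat
Mrc1, chr2:14229164-14229391 (+): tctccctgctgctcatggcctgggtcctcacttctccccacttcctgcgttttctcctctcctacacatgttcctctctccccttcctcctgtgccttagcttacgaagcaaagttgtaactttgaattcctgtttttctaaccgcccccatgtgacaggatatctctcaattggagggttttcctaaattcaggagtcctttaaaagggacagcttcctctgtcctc
In the Retnla window the PU.1 match lies at -198 to -191 and the STAT6 palindrome at -145 to -136 from the RefSeq start, and in the Chil3 window the STAT palindrome lies at -172 to -164. Of all windows, 5.85% hold the STAT6 palindrome, 7.02% the STAT palindrome and 2.44% the PU.1 motif. None of these motifs, nor the NF-κB consensus (7.25% of windows) or AP-1 (6.75%), was found in the windows of Mrc1, Cd36, Marco and Cd163, which says only that these letters are not there.

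Msr1 (ENSMUSG00000025044, chromosome 8 from 39581685 to 39642673 of GRCm38, minus strand) encodes the class A macrophage scavenger receptor, a trimer that binds acetylated and oxidised lipoproteins. In DMEM the samples had 322 and 280 CPM (mean 301 ± 29.5, SD, n = 2). In CM they had 1603, 1599 and 1695 CPM (mean 1632 ± 54.3, SD, n = 3), so that every CM sample was at least several times above both DMEM samples. In CM + Rux the values were 1032, 1137 and 1262 CPM (mean 1144 ± 115, SD, n = 3), and in CM + Rux + IKK-16 they were 634, 805 and 910 CPM (mean 783 ± 139, SD, n = 3). The samples labelled 2 h had 750 and 791 CPM. In DMEM + Rux the values were 235, 259 and 290 CPM, which overlapped those of DMEM. The order of the group means was CM, CM + Rux, CM + Rux + IKK-16, CM + Rux 2 h, DMEM and DMEM + Rux. Neighbours in this order did not overlap, except CM + Rux + IKK-16 with CM + Rux 2 h and DMEM with DMEM + Rux.

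Msr1 thus rose with CM and was lower with each inhibitor that was added, while it stayed above the DMEM samples in every CM group. CM raised it 5.43-fold (log2 fold change 2.44, 95% interval 2.11 to 2.76, adjusted p = 2.2e-08). Ruxolitinib lowered it 1.43-fold in CM (log2 fold change -0.51, 95% interval -0.78 to -0.25, adjusted p = 0.029), and the fall appeared in 3 of 3 replicate numbers, by 1.34 to 1.55-fold. The further fall with IKK-16 was 1.46-fold (log2 fold change -0.55, 95% interval -0.81 to -0.28, adjusted p = 0.0094), again in 3 of 3 numbers, by 1.39 to 1.63-fold. Against CM alone, both inhibitors together lowered it 2.09-fold (log2 fold change -1.06, 95% interval -1.33 to -0.79, adjusted p = 5.7e-05). CM + Rux was 1.48-fold above the samples labelled 2 h (log2 fold change 0.57, adjusted p = 0.0055). Ruxolitinib in DMEM gave a log2 fold change of -0.20 (95% interval -0.50 to 0.09, adjusted p = 1.0), and its effect in CM minus that in DMEM was -0.31 (95% interval -0.71 to 0.09, adjusted p = 0.73), so a difference was not shown.

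The calls of Msr1 in CM against DMEM and with both inhibitors against CM held under every alternative tried. The call with ruxolitinib lies near the thresholds: its adjusted p was 0.066, 0.073 and 0.082 without CM replicate 1, 2 and 3, and 0.14 and 0.064 without CM + Rux replicate 1 and 2. The log2 fold change with IKK-16 fell inside the threshold without CM + Rux replicate 3 (-0.47) and without CM + Rux + IKK-16 replicate 1 (-0.42), and that of CM + Rux against the samples labelled 2 h was 0.49 without CM + Rux replicate 3. Under total counts alone the changes with ruxolitinib and with IKK-16 were -0.49 and -0.46, short of the threshold, with only the groups compared in the model the adjusted p with IKK-16 was 0.058, and without all samples numbered 3 that with ruxolitinib was 0.10 and that against the samples labelled 2 h 0.060. Msr1 shared no window of 150 bases of its transcripts with another gene.

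**Figure D1:**
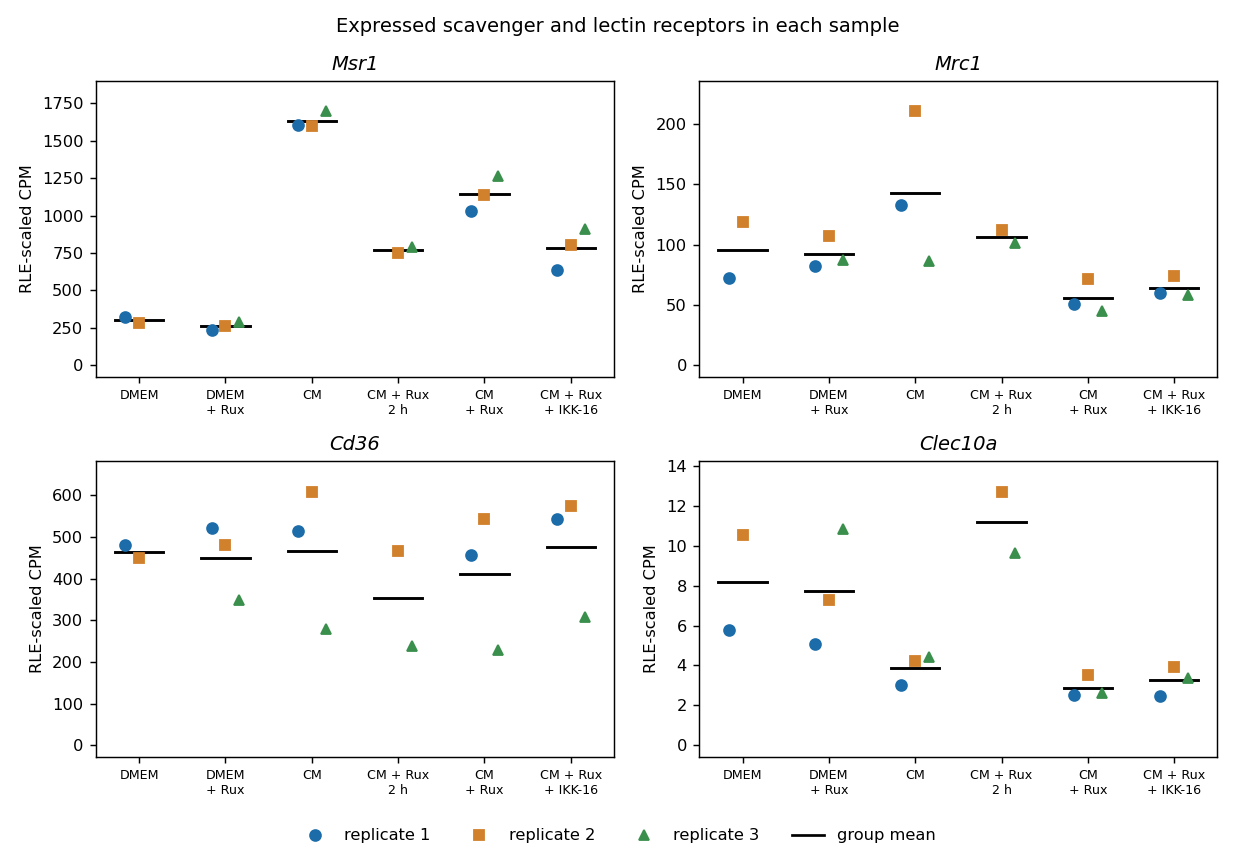
RLE-scaled CPM (y axis, linear, a separate scale for each gene) of Msr1, Mrc1, Cd36 and Clec10a in the 16 samples by group (x axis); points are samples, with the marker showing the replicate number of the labels, and black lines are group means. Msr1 is lowest in the DMEM groups and highest in CM, and Mrc1 is lowest in CM + Rux and CM + Rux + IKK-16. Cd36 is lowest in the sample numbered 3 of every group that has one.

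Marco (ENSMUSG00000026390, chromosome 1 from 120474538 to 120505024, minus strand) encodes the other class A receptor, which binds bacteria and inhaled particles and is known from macrophages of the marginal zone and the lung. It was scarce, with several samples at or near the limit of detection. It had 5 and 6 counts in DMEM, 0, 4 and 5 in DMEM + Rux, and 1, 5 and 11 in CM. The samples labelled 2 h had 10 counts each, CM + Rux had 11, 25 and 42, and CM + Rux + IKK-16 had 1, 17 and 60. On the CPM scale the highest values were 2.14 in CM + Rux replicate 3 and 1.75 in CM + Rux + IKK-16 replicate 3, and every group overlapped the next in order. No other sample was above 1 CPM, so Marco passed the filter only through these samples. In each group with 3 samples, the sample numbered 1 was the lowest and that numbered 3 the highest.

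Marco was not called in any comparison in the model without replicate numbers (log2 fold change 2.01 for CM + Rux against CM, 95% interval -0.30 to 4.32, adjusted p = 0.42). Once the replicate number entered the model, Marco was called higher in CM + Rux relative to CM, with a log2 fold change of 2.22 ± 0.45 (SE) and an adjusted p of 0.0049 and higher in CM + Rux + IKK-16 than in CM (1.70, adjusted p = 0.011). It was then also higher in CM + Rux than in the samples labelled 2 h (1.62, adjusted p = 0.0087). The within-number ratios of CM + Rux to CM were 4.08 to 5.33, each with 1 to 11 counts in the CM sample. Of all genes tested, that model called 2.47% higher when ruxolitinib was added to CM, 8.25% higher with both inhibitors and 12.2% higher against the samples labelled 2 h. Marco passed the filter only through CM + Rux and CM + Rux + IKK-16, where it was highest, so these calls are not independent of the filter.

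Cd36 (ENSMUSG00000002944, chromosome 5 from 17781690 to 17888801, minus strand) encodes a class B receptor that takes up oxidised lipoproteins and long-chain fatty acids. Its level was high and did not separate the groups. The samples had 480 and 450 CPM in DMEM, 521, 481 and 349 CPM in DMEM + Rux, and 513, 608 and 280 CPM in CM. In CM + Rux 2 h they had 466 and 238 CPM, in CM + Rux 457, 542 and 229 CPM, and in CM + Rux + IKK-16 543, 574 and 308 CPM. In all 5 groups with a sample numbered 3, that sample was the lowest, while the group means, from 352 to 475 CPM, all overlapped their neighbours in order.

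Cd36 was called in none of the 7 comparisons, with or without the replicate number in the model. The log2 fold change was 0.01 for CM against DMEM (95% interval -0.84 to 0.85) and -0.19 for CM + Rux against CM (95% interval -0.95 to 0.57). These intervals leave room for changes of about the size that Msr1 showed with each inhibitor. In the model with replicate numbers the values were 0.23 (standard error 0.12, adjusted p = 0.12) and -0.20 (standard error 0.11, adjusted p = 0.30). The direction in CM against DMEM depended on the scaling, with -0.31 under total counts alone.

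Cd163 (ENSMUSG00000008845, chromosome 6 from 124304656 to 124330527, plus strand) encodes the receptor for haemoglobin bound to haptoglobin. It was scarce in every group. It had 0.945 and 2.29 CPM in DMEM and 1.11, 2.1 and 1.2 CPM in DMEM + Rux, from 24 to 94 counts. In CM the values were 0.500, 0.594 and 0.407 CPM, from 9 to 20 counts, and all 3 lay below both DMEM samples. The samples labelled 2 h had 0.911 and 0.992 CPM, CM + Rux had 0.269, 0.847 and 1.07 CPM, and CM + Rux + IKK-16 had 0.335, 0.825 and 0.553 CPM. The last 2 groups overlapped CM.

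Cd163 was called lower in CM than in DMEM, by 3.11-fold (log2 fold change -1.64, 95% interval -2.79 to -0.48, adjusted p = 0.017), and was not called in any other comparison. The call rests on few samples: the adjusted p was 0.26 without DMEM replicate 2 (log2 fold change -0.89) and 0.051 without CM replicate 3 (-1.5), and it was 0.096 without all samples numbered 3. The log2 fold change was 0.46 for CM + Rux against CM (95% interval -0.69 to 1.6) and -0.30 for CM + Rux + IKK-16 against CM + Rux (95% interval -1.38 to 0.77).

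Mrc1 (ENSMUSG00000026712, chromosome 2 from 14229392 to 14332057, plus strand) encodes the mannose receptor CD206, a C-type lectin that takes up glycoproteins with terminal mannose and is the most used surface mark of alternative activation. In DMEM the samples had 72.0 and 119 CPM (mean 95.4 ± 33.2, SD, n = 2), and in DMEM + Rux they had 82.4, 107 and 87.3 CPM (mean 92.4 ± 13.2, SD, n = 3). In CM they had 133, 211 and 86.2 CPM (mean 143 ± 62.8, SD, n = 3), a wide spread that overlapped DMEM. CM + Rux had 50.8, 71.9 and 44.9 CPM (mean 55.9 ± 14.2, SD, n = 3), and all 3 lay below every CM sample. CM + Rux + IKK-16 had 59.6, 74.0 and 57.9 CPM (mean 63.8 ± 8.84, SD, n = 3), which overlapped CM + Rux. The samples labelled 2 h had 112 and 101 CPM, above each CM + Rux sample. In each group with a sample numbered 2, that sample was the highest.

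Ruxolitinib lowered Mrc1 in CM by 2.56-fold (log2 fold change -1.36, 95% interval -1.95 to -0.76, adjusted p = 0.011), and within the numbers 1, 2 and 3 the fall was 2.62, 2.93 and 1.92-fold. With both inhibitors it was 2.25-fold below CM (log2 fold change -1.17, 95% interval -1.76 to -0.58, adjusted p = 0.0081). IKK-16 added to CM + Rux gave a log2 fold change of 0.19 (95% interval -0.40 to 0.78, adjusted p = 0.71), an interval that excludes a fall of the size seen for Msr1 in the same comparison. CM + Rux was 1.90-fold below the samples labelled 2 h (log2 fold change -0.93, 95% interval -1.58 to -0.28, adjusted p = 0.026). In DMEM, ruxolitinib gave -0.04 (95% interval -0.70 to 0.61, adjusted p = 1.0).

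For CM against DMEM the log2 fold change of Mrc1 was 0.59 (95% interval -0.07 to 1.25, adjusted p = 0.11), and it was not called. In the model with replicate numbers it was 0.67 (standard error 0.18, adjusted p = 0.0045) and was called, with ratios of 1.85 and 1.77 within the numbers 1 and 2. With that model 21.7% of all genes tested were called higher. The ruxolitinib effect on Mrc1 in CM minus that in DMEM was -1.31 (95% interval -2.20 to -0.42, adjusted p = 0.23), and with the replicate number -1.42 (standard error 0.24, adjusted p = 0.0055), where 3.59% of the genes tested were called in either direction. Marco was the other member called in this test (4.58, standard error 0.93, adjusted p = 0.013), from 0 to 6 counts in each DMEM sample. It passed the filter only through CM + Rux and CM + Rux + IKK-16.

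In the model without replicate numbers, the calls of Mrc1 with ruxolitinib in CM and against the samples labelled 2 h depended on single samples. With ruxolitinib in CM its adjusted p was 0.057 without CM replicate 2, where the log2 fold change was -0.97, and 0.066 and 0.059 without CM + Rux replicate 1 and 3, where it was -1.29 and -1.22. It was 0.075 with only the groups compared in the model (log2 fold change -1.36) and 0.066 without all samples numbered 3 (-1.49). Against the samples labelled 2 h it was 0.12 and 0.074 without either of these, and 0.075 and 0.084 without CM + Rux replicate 1 and 3, and 0.13 without all samples numbered 3. Mrc1 was called higher in CM than in DMEM without CM replicate 3 (log2 fold change 0.85, adjusted p = 0.016) and without DMEM replicate 2 (1.0, adjusted p = 0.048). The call with both inhibitors against CM held under every alternative tried.

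Clec10a (ENSMUSG00000000318, chromosome 11 from 70156197 to 70170834, plus strand) encodes the galactose-type lectin MGL1 (CD301). It shares 34 of 3651 windows of 150 transcript bases, 0.931%, with its neighbour Mgl2, so that fragments from these stretches cannot be assigned, and Mgl2 itself was under 1 CPM in every sample. Clec10a had 5.76 and 10.5 CPM in DMEM and 5.07, 7.29 and 10.8 CPM in DMEM + Rux. It had 3.0, 4.24 and 4.44 CPM in CM, all below both DMEM samples. The samples labelled 2 h had 12.7 and 9.63 CPM, CM + Rux had 2.51, 3.51 and 2.64 CPM, and CM + Rux + IKK-16 had 2.47, 3.91 and 3.38 CPM. The 3 groups of CM without the 2 h label overlapped each other, and they lay below the 3 other groups.

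Clec10a was called lower in CM than in DMEM, by 2.06-fold (log2 fold change -1.04, 95% interval -1.73 to -0.35, adjusted p = 0.012). This call was lost without DMEM replicate 2 (log2 fold change -0.55, adjusted p = 0.23). CM + Rux was 3.86-fold below the samples labelled 2 h (log2 fold change -1.95, 95% interval -2.63 to -1.26, adjusted p = 3.7e-04), with ratios of 3.62 and 3.64 within the numbers 2 and 3. Ruxolitinib in CM gave -0.43 (95% interval -1.09 to 0.22, adjusted p = 0.60), and IKK-16 added to it gave 0.16 (95% interval -0.50 to 0.81, adjusted p = 0.79).

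Retnla (ENSMUSG00000061100, chromosome 16 from 48842551 to 48844461, plus strand) encodes the resistin-like protein FIZZ1. It had 7 counts over all 16 samples, with 2 in DMEM + Rux replicate 2, 1 in CM replicate 1, 4 in CM + Rux 2 h replicate 2 and 0 in the other 13 samples. Chil3 (ENSMUSG00000040809, chromosome 3 from 106147554 to 106167564, minus strand) encodes the chitinase-like protein Ym1. It had 1 count in each of 5 samples and 0 in the rest. Of both genes together, 1 value exceeded 3 counts. A level above 0.0669 to 0.175 CPM, depending on the sample, was therefore not seen in any sample except the one with 4 Retnla counts (0.110 CPM). No fold change is given for these 2 genes, since every group of each was at or near this limit. The paralogs Retnlb, Retnlg, Chil1, Chil4 and Chia1 were at 0 in all samples.

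**Figure D2:**
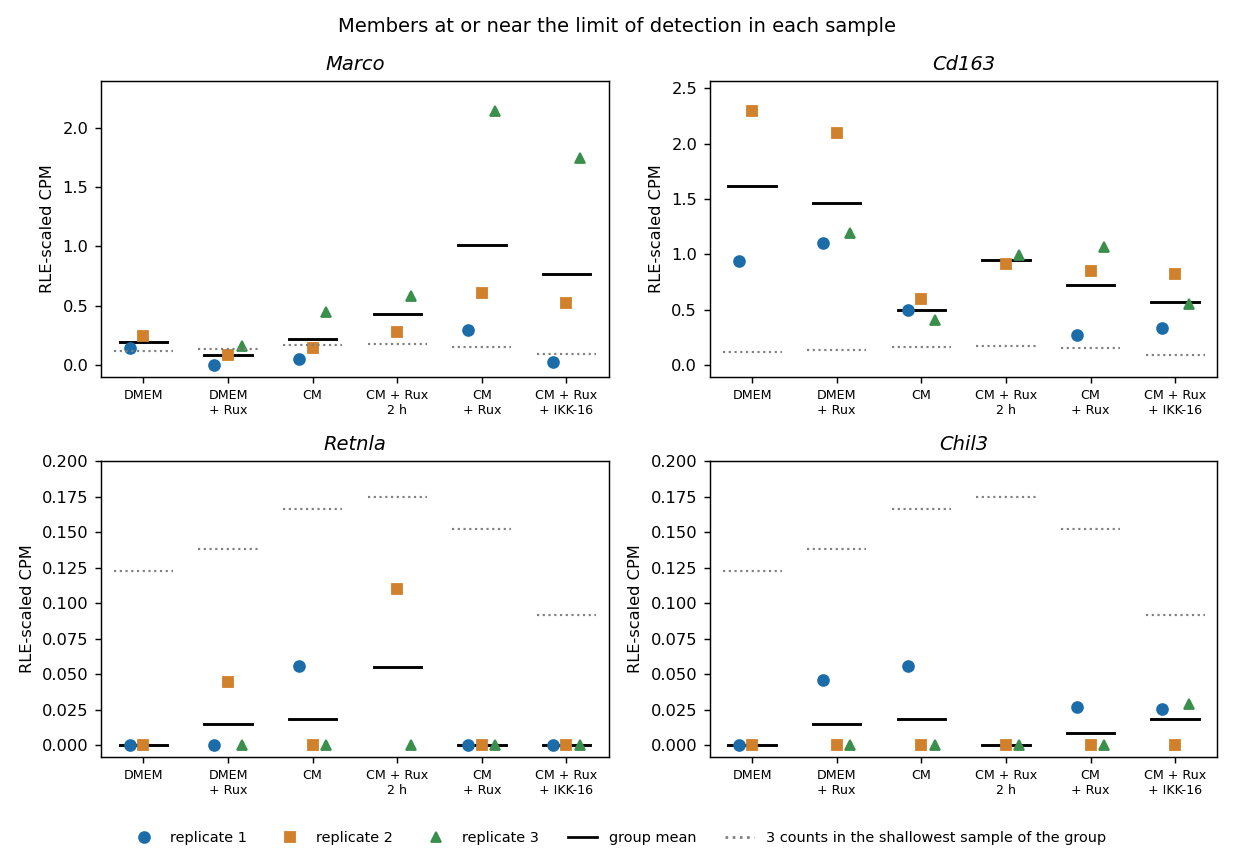
RLE-scaled CPM (y axis, linear, with a separate scale for Marco and Cd163) of Marco, Cd163, Retnla and Chil3 in the 16 samples by group (x axis); points are samples, marked by replicate number, black lines are group means and dotted lines are the CPM of 3 counts in the shallowest sample of the group. Marco is highest in the samples numbered 3 of the 2 groups at the right, at 2.14 and 1.75 CPM, and all values of Retnla and Chil3 lie below the dotted lines of their group.

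Set against all genes, CM gave 1 higher and 2 lower calls among the 6 members tested relative to DMEM, beside 20.9% higher and 24.1% lower among all 12372 genes tested. The median log2 fold change of the 6 was 0.11, against -0.00 for all genes tested. Under total counts alone the share of higher genes among all calls went from 46.4% to 25% in this comparison, and the calls of Msr1, Cd163 and Clec10a kept their direction under TMM and under total counts. In CM + Rux against CM, 0 members were called higher and 2 lower, beside 1.2% and 2.13% of all genes tested. With IKK-16 added, 0 were higher and 1 lower, beside 4.07% and 3.66%. With both inhibitors against CM, 0 were higher and 2 lower, beside 6.6% and 6.13%. Under total counts alone the share of higher genes among all calls went from 52.7% to 67.5% with IKK-16 and from 51.9% to 68.1% with both inhibitors.

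Against the samples labelled 2 h, 1 member was higher in CM + Rux and 2 were lower, beside 10.7% and 12.6% of the genes tested. In DMEM, ruxolitinib gave a call for 0 of the 6 members with edgeR, 0 at an unadjusted p under 0.05 and 0 with DESeq2. Of all genes tested, edgeR called 0% higher and 0.97% lower, and 2.39% passed at the unadjusted p beyond the same fold. The ruxolitinib effect in CM minus that in DMEM was called for 0 of the 6 members with edgeR and with DESeq2. Of all genes tested, edgeR called 0.412% in either direction. At an unadjusted p under 0.05 and beyond the same fold, 1 member, Mrc1, passed, beside 6% of all genes. CM + Rux against CM and CM + Rux + IKK-16 against CM + Rux share the CM + Rux samples, and CM against DMEM shares the CM samples with the former, so that their values are not independent.

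**Figure D3:**
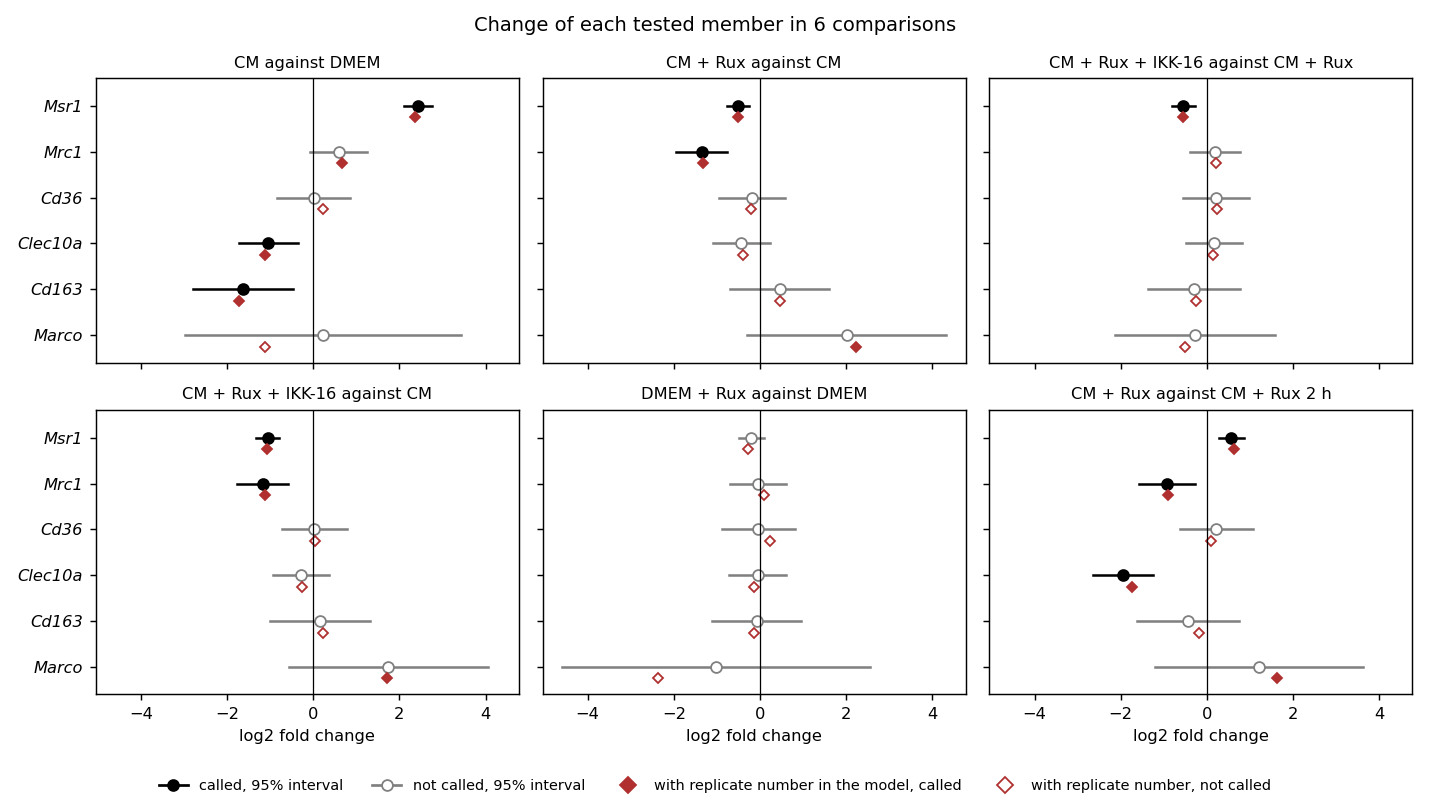
Log2 fold change (x axis) of the 6 tested members (y axis) in 6 comparisons (panels); circles are the estimates with 95% intervals, filled where the gene was called, and diamonds are the estimates with the replicate number in the model, filled where called. Msr1 lies at 2.44 in CM against DMEM and below 0 with each inhibitor, Mrc1 lies below 0 where ruxolitinib was added to CM, and the interval of Cd36 includes 0 in every panel.

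Markers of other cells moved with some of these comparisons, in most lists through 1 gene. Of the 5 B cell markers 2 passed the filter, and their summed level was 80.1 to 144 CPM in DMEM and 10.6 to 14.2 CPM in CM, almost all of it Ighm, while Ms4a1 was at 0 in DMEM. The B cell sum was also higher in the samples labelled 2 h, at 55.6 to 71.4 CPM, than in CM + Rux, at 12.2 to 15.5 CPM, the direction of Clec10a and Mrc1 in that comparison. The 6 dendritic cell markers, of which Zbtb46 alone passed, summed to 8.83 to 12.8 CPM in the samples labelled 2 h and to 2.21 to 2.32 CPM in CM + Rux. Nearly all of this was Zbtb46 (10.1 and 1.89 CPM), while Flt3 was at 0 in the former and at 0.0691 CPM in the latter, and Clec9a at 0.0276 and 0.0824 CPM.

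Of the 5 monocyte markers 2 passed, with a sum of 39.9 to 42.3 CPM in DMEM, 22.5 to 33.1 CPM in CM and 14.7 to 21.6 CPM in CM + Rux, mostly Ccr2. Of the 9 neutrophil markers S100a8 alone passed, with a sum of 0.286 to 0.295 CPM in DMEM and 1.72 to 3.32 CPM in CM, and Ly6g was at 0 in all samples. Of the 6 markers of fibroblasts and endothelium 4 passed, with a sum of 11.5 to 18.5 CPM in DMEM and 17.9 to 30.6 CPM in CM. Within this list the endothelial gene Pecam1 was called higher in CM (0.396 and 9.78 CPM), while the fibroblast genes Col1a1 (6.28 and 5.76 CPM) and Col1a2 (7.66 and 7.06 CPM) were not called. Of the 6 markers of eosinophils and basophils Ccr3 alone passed, with a sum of 3.37 to 5.27 CPM in DMEM and 9.06 to 18.9 CPM in CM, and Epx was at 0 in both groups. Of the 6 epithelial and the 6 T and NK cell markers none passed, and they summed to at most 1.45 and 0.357 CPM. The macrophage markers differed among themselves in CM relative to DMEM: Cd14 (2111 and 13548 CPM in DMEM and CM) and Itgam (110 and 218 CPM) were called higher, Csf1r (3557 and 2330 CPM) was called lower, and Adgre1 (1530 and 1449 CPM) and Lyz2 (34123 and 31295 CPM) were not called. The part of all these markers in the results of Cd163, Clec10a and Mrc1 was not tested.

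Other scavenger receptors were compared from a list of 20, of which 15 were tested. CM raised 4 and lowered 3, beside 20.9% and 24.1% of all genes tested, with a median log2 fold change of -0.14. The model with replicate numbers called 3 of the 15 higher and 4 lower, beside 21.7% and 25.5% of all genes tested. Olr1 and Ager were under 1 CPM in all samples without CM and passed the filter through samples with CM. Olr1, which encodes LOX-1, the receptor of endothelium and macrophages for oxidised LDL, was at 0.502 and 0.286 CPM in DMEM and at 110, 137 and 112 CPM in CM (log2 fold change 8.18, adjusted p = 1.9e-09). Ly75 (2.23), an endocytic lectin of dendritic cells, and Ager (1.10), the receptor for glycated proteins, were the next highest. Scarf2 (-1.31), Colec12 (-1.31), a class A receptor with a lectin domain, and Scarb2 (-0.89), a class B protein of lysosomes, were lower. The calls of Ager and Scarf2 depended on single samples: that of Ager had an adjusted p of 0.063 to 0.18 without CM replicate 2 or 3 or either DMEM sample, and that of Scarf2 one of 0.055 without DMEM replicate 1. Among class A receptors, Msr1 was called higher and Colec12 lower in CM, and Marco was not called.

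With ruxolitinib in CM, Olr1 was called higher (log2 fold change 0.75, adjusted p = 0.040) and Clec7a, the receptor dectin-1 for fungal glucans, lower (-0.52, adjusted p = 0.046). Thus 1 of 15 rose and 1 fell, beside 1.2% and 2.13% of all genes tested. Both calls lie near the threshold: that of Olr1 was lost without any 1 of the 6 samples (adjusted p 0.057 to 0.14), and that of Clec7a without any 1 of them except CM + Rux replicate 2 (0.066 to 0.20). IKK-16 lowered Olr1 (log2 fold change -0.85, adjusted p = 0.0095), the only call of the 15, where 4.07% of all genes were higher and 3.66% lower. Without all samples numbered 3 the adjusted p of Olr1 was 0.073. With both inhibitors against CM, 0 of the 15 were called by edgeR, by DESeq2 or at an unadjusted p under 0.05 beyond the same fold. Of all genes tested, edgeR called 6.6% higher and 6.13% lower. Olr1 and Msr1 were therefore both higher in CM and both lower with IKK-16, while with ruxolitinib Olr1 was higher and Msr1 lower. Against the samples labelled 2 h, 1 was higher in CM + Rux (Ly75, 1.83) and 5 were lower, beside 10.7% and 12.6% of all genes tested. Of the lower ones, Stab2 (-3.19), Colec12 (-1.15) and Clec7a (-0.83) were the furthest. Without CM + Rux 2 h replicate 2 the adjusted p of Ly75 was 0.060, and without replicate 3 that of Stab2 was 0.078.

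Of 16 other genes of alternative activation, 10 were tested, and CM raised 9 and lowered 1, beside 20.9% and 24.1% of all genes tested. The median log2 fold change was 3.96 against -0.00 for all genes, which is the same with Ccl17 at its lower bound. Arg1, Ccl17 and Pdcd1lg2 were under 1 CPM in all samples without CM and passed the filter through samples with CM. A lower call in CM was hardly possible for them, and they count among the 9. Arg1, the arginase of alternative activation, had 1 and 0 counts in DMEM and 17.1, 54.1 and 22.2 CPM in CM, a ratio of summed counts per depth of 2045 whose 95% counting interval runs from 367 to 80809 (adjusted p = 1.7e-04). The chemokine Ccl17 was at 0 in DMEM and at 17.4, 30.3 and 27.3 CPM in CM, at least 203.8-fold higher than 3 counts in the shallower DMEM sample (adjusted p = 7.4e-05). Slc7a2, a transporter of arginine, went from 8.53 and 8.22 CPM to between 1052 and 1066 CPM (log2 fold change 6.98, adjusted p = 4.8e-12), and the gene called lower was Ptgs1 (-1.16), the constitutive cyclooxygenase. Among the genes of alternative activation that passed the filter, these 9, in part admitted through CM, were higher in CM than in DMEM. Retnla and Chil3 had almost no counts in either, and Clec10a and Cd163 were lower.

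Ruxolitinib in CM lowered 1 of the 10, Pdcd1lg2, the ligand PD-L2 (log2 fold change -2.64, adjusted p = 2.7e-04), beside 2.13% of all genes tested. Pdcd1lg2 passed the filter through the CM samples alone, where it was highest. The model with replicate numbers called 1 higher and 3 lower, beside 2.47% and 3.56% of all genes tested. Arg1 had 2.24, 15.3 and 4.73 CPM in CM + Rux, all below the CM samples, with a log2 fold change that was not called. IKK-16 added to CM + Rux lowered 4 of the 10, beside 3.66% of all genes tested. The largest falls were those of Il4i1 (-2.55), an amino acid oxidase, Ccl24 (-1.44) and Ccl22 (-1.24), both chemokines. Without all samples numbered 3 the adjusted p of Ccl24 was 0.16. Both inhibitors against CM lowered 6, beside 6.13% of all genes tested, and of these Arg1 (-2.48), Ccl24 (-2.42) and Il4i1 (-2.35) had the largest falls. Against the samples labelled 2 h, 2 of the 10 were higher in CM + Rux, Arg1 (3 and 0 counts in the samples labelled 2 h, ratio of summed counts per depth 147, 95% counting interval 50 to 712, adjusted p = 0.0054) and Slc7a2 (1.57), and Ptgs1 (-1.78) was lower. Of all genes tested, 10.7% were higher and 12.6% lower without replicate numbers in the model. With them, the model called 5 of the 10 higher and 2 lower against the samples labelled 2 h, beside 12.2% and 13.3%. The Arg1 call against these samples had an adjusted p of 0.058 without CM + Rux 2 h replicate 2, and its call with both inhibitors was 0.13, 0.090 and 0.095 without CM replicate 2 and CM + Rux + IKK-16 replicate 1 and 3. The Ptgs1 call in CM against DMEM was 0.072 without DMEM replicate 2.

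All 20 genes of a list of regulators of these programmes were tested. CM raised 7 and lowered 3, beside 20.9% and 24.1% of all genes tested, and the median log2 fold change was 0.12. Kdm6b, a histone H3K27 demethylase, rose by 4.99, Il4ra, the receptor chain for IL-4 and IL-13, by 4.39 (46.0 ± 8.30 CPM in DMEM, n = 2, and 963 ± 225 CPM in CM, n = 3, SD) and the transcription factor Cebpb by 2.84 on the log2 scale. Pparg, a nuclear receptor that drives Cd36 transcription in lipid-loaded macrophages, fell by 4.34 (36.0 ± 14.7 CPM, n = 2, to 1.76 ± 0.267 CPM, n = 3, SD), its coactivator Ppargc1b fell by 2.61 and the oxysterol receptor Nr1h3 by 0.87. The levels of Cd36 in these groups were 465 ± 21.1 CPM in DMEM and 467 ± 169 CPM in CM (SD, n = 2 and 3), and the difference was not called.

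With ruxolitinib in CM, the regulators called were Il4ra (-1.16, adjusted p = 0.016) and Il13ra1 (-0.69, adjusted p = 0.021), both lower, beside 2.13% of all genes tested. The Il4ra call was lost without CM replicate 2 or CM + Rux replicate 1 or 3 (adjusted p 0.081 to 0.094), and the Il13ra1 call without CM replicate 1 or 2 or CM + Rux replicate 1 or 2 (0.059 to 0.11). The model with replicate numbers called 2 regulators higher and 3 lower, beside 2.47% and 3.56% of all genes tested. IKK-16 gave 2 higher calls, Ppargc1b (1.79) and Rxra (0.59), the partner of nuclear receptors, and 0 lower, beside 4.07% and 3.66% of all genes tested. With both inhibitors against CM, 3 were higher, namely Ppargc1b (1.61), Spic (1.18) and Nr1h3 (0.94), and 5 lower, led by Il4ra (-1.77), Il13ra1 (-1.04) and Maf (-0.85). Of all genes tested, 6.6% were higher and 6.13% lower. Stat6, named after its values were seen, had log2 fold changes of 0.01 with ruxolitinib, 0.05 with IKK-16 and 0.07 with both, and against the samples labelled 2 h it had -0.42 (adjusted p = 1.1e-04), short of the fold threshold. Against the samples labelled 2 h, 3 were higher in CM + Rux (Spic 1.47 and Il13ra1 0.89 among them) and 5 lower (Pparg -1.93, Egr2 -1.33 and Irf4 -1.22 the furthest), beside 10.7% and 12.6% of all genes tested. The call of Spic was lost in both comparisons without single samples (adjusted p 0.077 to 0.14), namely any except CM replicate 3 and CM + Rux + IKK-16 replicate 2 with both inhibitors, and either sample labelled 2 h or CM + Rux replicate 1 against 2 h. Ppargc1b had an adjusted p of 0.053 with IKK-16 with only the groups compared in the model, and without all samples numbered 3 one of 0.055 with IKK-16 and 0.056 with both inhibitors. Maf had an adjusted p of 0.060 without CM + Rux + IKK-16 replicate 1, and Rxra a log2 fold change under the threshold without CM + Rux replicate 1 (0.498) or CM + Rux + IKK-16 replicate 3 (0.489). In DMEM, ruxolitinib gave 0 calls in the 3 lists with edgeR and DESeq2. At an unadjusted p under 0.05 beyond the same fold, 1 regulator passed, beside 2.39% of all genes tested.

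**Figure D4:**
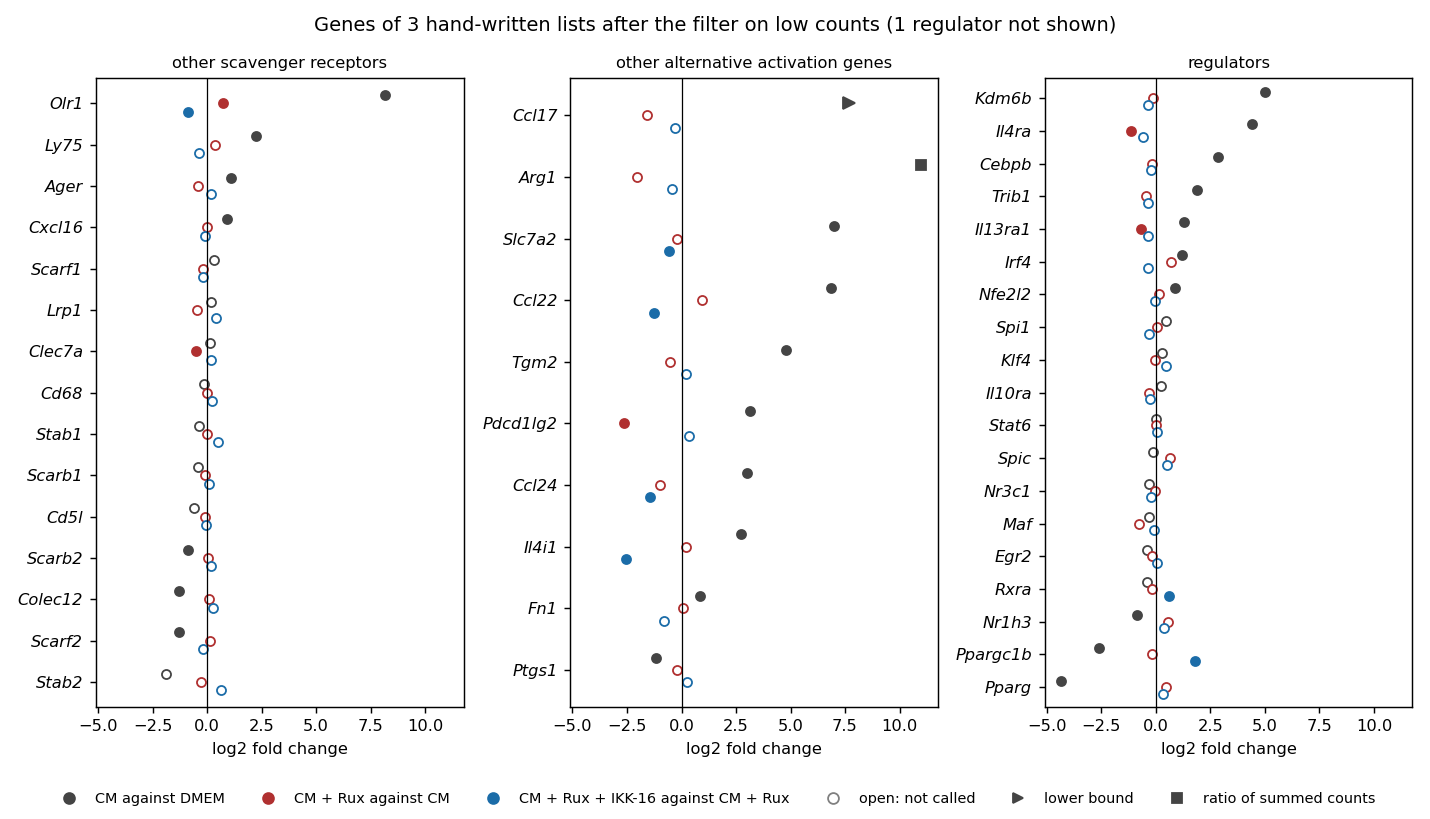
Log2 fold change (x axis) of the tested genes (y axis, ordered by their change in CM, with 1 regulator not shown) of 3 lists (panels) in 3 comparisons, shown in grey for CM against DMEM, red for ruxolitinib in CM and blue for IKK-16 added to it; filled circles were called, open circles were not, the triangle is the lower bound of Ccl17, at 0 in DMEM, and the square is the ratio of summed counts per depth of Arg1, with 1 count in DMEM. Of the genes of alternative activation 9 of 10 lie to the right of 0 in CM, while Pparg lies furthest to the left of the regulators.

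Across the 16 samples, the members did not share 1 pattern. On the scale of log2(CPM + 0.5), the highest Pearson correlation between 2 members was that of Cd163 and Clec10a (0.68), and the lowest was that of Msr1 and Cd163 (-0.70). Msr1 and Mrc1 had 0.01, and Cd36 and Marco had -0.67. These values describe 16 points from 6 groups that share treatments and replicate numbers, and no test was made. The genes most like each member by this measure, of 12372, were Zdhhc5, Tmbim6 and Syvn1 for Msr1 (0.99, 0.98 and 0.98), AB124611, Emb and Psd3 for Mrc1 (0.93, 0.92 and 0.91) and Fads2, Castor2 and Ncaph for Cd36 (0.89, 0.88 and 0.88). For Clec10a they were Ddrgk1, Tbxas1 and Nxpe5 (each 0.95), for Cd163 A430035B10Rik, Ndc80 and Adgre4 (0.90, 0.89 and 0.89) and for Marco Vcpkmt, Slc25a10 and Acp2 (0.85, 0.85 and 0.84).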

How the data were processed

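RNA from 16 BMDM cultures in 6 groups was sequenced by the authors as stranded, paired-end libraries. Per the labels and the study's methods, reads were trimmed with Trimmomatic, aligned to GRCm38 with HISAT2, and counted with featureCounts on the reverse strand as read pairs with both ends mapped at a mapping quality of at least 10. The authors deposited these as raw counts per Ensembl gene (not normalized), and no other table was used. Symbols were taken from a GENCODE table and matched 55141 of 55487 identifiers, and the others held at most 0.0459% of a sample's counts.

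Counts were scaled by RLE and tested in 1 quasi-likelihood model of all 16 samples (edgeR 4.0.16, R 4.3.3) after keeping the 12372 genes above 1 CPM in at least 2 samples. Adjusted p-values are Benjamini-Hochberg over all genes tested, with thresholds of 0.05 and a log2 fold change of 0.5. The steps were tested on simulated data. Replicates differed by more than sampling noise (chi-square per degree of freedom 15.2 to 58.7), so each counts once. Samples with the same replicate number deviated together (correlations of deviations from group means 0.22 to 0.717 over the same-numbered pairs of the 6 comparisons of 2 groups), so the numbers pair the samples, although no label says what a number marks, and a model with the number as a block was fitted too. Alternatives were TMM, total counts alone, DESeq2 1.42.0, no filter, edgeR's own filter, a likelihood ratio test, only the groups compared, and leaving out single samples. No fold change threshold and a looser adjusted p were also applied to the main fit. Leaving out all samples numbered 3 was added after seeing the data. The 8 genes and the gene lists were chosen with earlier results of these data known. Genes named from the lists are the 3 with the largest called change in each direction of a comparison. Likeness was measured on log2(CPM + 0.5). RefSeq promoter windows were of GRCm38.p6. Values of some listed genes are not reported here.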

Additional observations from a re-analysis of the deposited data

Results flagged for a closer look

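In the model with replicate numbers, a difference of the ruxolitinib effect between CM and DMEM was called for 2 of the 6 members tested, beside 3.59% of all genes. For Mrc1 the difference of the log2 fold changes was -1.42 (standard error 0.24, adjusted p = 0.0055 by edgeR), with an effect of -1.32 in CM and of 0.10 in DMEM. For Marco it was 4.58 (standard error 0.93, adjusted p = 0.013), with 2.22 in CM and -2.36 in DMEM, where no sample held over 6 counts. Marco passed the filter only through CM + Rux and CM + Rux + IKK-16, so its call is not independent of the filter. Without the replicate number the differences were -1.31 (adjusted p = 0.23) and 3.04 (adjusted p = 0.80), and neither was called. Groups of 2 or 3 samples are too small for a test of outlying samples.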

How the results depend on the processing

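Of the comparisons of single members under all alternatives, 625 kept their direction and call, 27 lost the call, 11 gained it and 40 changed direction. The 40 were changes that were not called. The alternatives counted include looser thresholds applied to the same fit, where a direction cannot change and a call cannot be lost. The number of members called in CM + Rux against CM (2) was 1 under total counts alone and with only the groups compared, 0 without all samples numbered 3, and 0 to 1 without single samples. With IKK-16 added (1) it was 0 under total counts alone and with only the groups compared, and 0 to 1 without single samples. Against the samples labelled 2 h (3) it was 1 without all samples numbered 3 and 1 to 3 without single samples. For the difference of the ruxolitinib effects (0) it was 1 with no filter (Mrc1) and 2 with the replicate block. The block changed no member's call beyond those given with Mrc1 and Marco.

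Log2 fold changes that turned were those of Cd36 in CM against DMEM (-0.00228 with TMM, -0.31 under total counts, -0.00132 with only the groups compared) and Marco (-0.0888 under total counts, -1.13 with the block). In DMEM with ruxolitinib, Mrc1 had 0.10 and Cd36 0.24 with the block. Without all samples numbered 3, Cd163 had 0.0057 with IKK-16, 0.0653 in DMEM with ruxolitinib and -0.0412 for the difference of the effects, Cd36 had -0.0109 with both inhibitors and 0.11 in DMEM, and Clec10a had 0.0836 for the difference. Without single samples, Cd36 ranged from -0.23 to 0.27 in CM against DMEM, -0.45 to 0.10 with ruxolitinib, -0.0757 to 0.46 with IKK-16, -0.24 to 0.26 with both, -0.16 to 0.11 in DMEM, -0.19 to 0.79 against 2 h and -0.41 to 0.14 for the difference. Marco ranged from -0.71 to 0.58 in CM against DMEM and -0.76 to 0.32 with IKK-16. Cd163 ranged from -0.20 to 0.44 with both inhibitors, -0.61 to 0.67 in DMEM and -0.21 to 1.06 for the difference. Mrc1 ranged from -0.37 to 0.36 and Clec10a from -0.44 to 0.43 in DMEM, and Clec10a from -0.87 to 0.0077 for the difference. The causes were not tested. Depth limits Marco, Cd163, Retnla and Chil3, and DESeq2 gave no adjusted p for some results of Marco.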
